A study of Mus musculus with 9 samples.

Results

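The tumor suppressor p53, encoded by *Trp53* in the mouse, and 9 of its well-known target genes (*Mdm2*, *Cdkn1a*, *Ccng1*, *Bax*, *Bbc3*, *Phlda3*, *Sesn2*, *Zmat3* and *Eda2r*) were followed in the RNA of 9 KLN205 tumors. The genes were chosen by symbol, with earlier results of these data known. All 10 were found among the 19481 genes of the deposited table, and all 10 had enough reads to be tested, together with 14725 genes in all.

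KLN205 is a mouse lung squamous cell carcinoma line that grows in DBA/2 mice with an intact immune system. The cells carried a doxycycline-inducible SMARTvector short hairpin RNA, which was a control shRNA in 3 tumors, *Tmprss11b* sh2 in 3 and *Tmprss11b* sh3 in 3. *Tmprss11b* encodes a membrane-anchored serine protease, and the study asked how the tumor and its surroundings differ once that gene is silenced. The cells of every group were also cultured with doxycycline at 3 µg per ml. The cells were injected under the skin of the flank of female mice aged 6 to 8 weeks. Every group received doxycycline in drinking water from a mean tumor volume of 100 mm3 until the tumors were removed on day 50. The lines were selected pools of cells that carry the vector, so the host cells of the tumor kept *Tmprss11b*. Each library came from a piece of whole tumor and holds RNA of the carcinoma and of host cells, so fewer cells of a type and less RNA per cell cannot be told apart. Any difference in tumor size between the groups cannot be told apart from the group either.

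p53 is a transcription factor that is held at a low protein level by MDM2, a ubiquitin ligase that marks it for degradation and that is itself a p53 target. Damage to DNA, oncogene activity and other stresses release p53 from MDM2, mostly without a change in its own mRNA, and p53 then binds its response elements and activates genes of cell cycle arrest, apoptosis and metabolism. Loss of p53 function is common in squamous lung cancer, and the RNA level of its targets is widely used as a readout of its activity.

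A p53 response element is a pair of similar half-sites of 10 bases, which may be separated by a spacer. The RefSeq promoter table of GRCm38.p6 holds 9 of the 10 genes, without *Zmat3*, and the 250 bases before each start were searched on both strands for such pairs with a spacer of 0 to 13 bases. A pair with at most 2 mismatches was found for 3 of the 9 genes, *Cdkn1a*, *Ccng1* and *Bax*, against 3.87% of the 27025 genes in that table. With 3 mismatches allowed it was found for 5 of the 9, adding *Trp53* and *Bbc3*, against 14.6% of all genes. The number of mismatches was chosen after the matches had been seen, and a match in letters is not a measurement of binding. Elements outside these 250 bases, farther off or within the genes, were not searched for. The 3 closest matches are shown since these genes represent the arrest and the apoptosis arm among the results, with the half-sites in capitals and 20 flanking bases on each side in lower case.
*Cdkn1a*, chr17:29090886-29090957, plus strand, no mismatch: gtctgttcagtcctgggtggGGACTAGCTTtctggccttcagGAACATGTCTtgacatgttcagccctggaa
*Ccng1*, chr11:40755442-40755501, minus strand, 1 mismatch: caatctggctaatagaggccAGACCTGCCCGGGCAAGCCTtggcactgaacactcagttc
*Bax*, chr7:45467059-45467119, minus strand, 2 mismatches: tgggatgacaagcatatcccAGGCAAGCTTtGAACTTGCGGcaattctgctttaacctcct
The match of *Cdkn1a* lies 73 to 42 bases before one of its annotated starts and has a spacer of 12 bases. That of *Ccng1* lies 195 to 176 bases before the start with its half-sites adjoining, and that of *Bax* lies 201 to 181 bases before the start with a spacer of 1 base. For each start the pair with the fewest mismatches was kept. In *Cdkn1a*, the 10 bases right after the downstream half-site would form an adjoining pair with it, with 1 mismatch. Before the other annotated start of *Cdkn1a* the closest pair had 5 mismatches.

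Between 20653219 and 24047784 reads were assigned to genes per tumor. *Tmprss11b*, listed as *Tmprss11bnl*, was counted 18, 51 and 42 times in the control tumors, 7, 2 and 5 times with sh2 and 10, 4 and 5 times with sh3, so the groups did not overlap. Control shRNA replicate 1 and sh2 replicate 2 stood apart from the other tumors by the number of genes found mainly in 1 tumor. They had 47 and 17 genes at 1 CPM (counts scaled to the library's total) or more that were over 10 times as high as in every other tumor, against 0 to 6 in the other 7. Each member result was therefore also computed without these 2 tumors. By the spread of counts within a group, sh3 replicate 1 was the most distant tumor, with a chi-square per degree of freedom of 223.8 and 151.1 to the other sh3 tumors, which were at 73.3 to each other, against 32.3 to 87.5 for pairs of control or of sh2 tumors. The values with 1 tumor left out at a time include those without it. The epithelial genes *Epcam* (646 to 1151 CPM), *Krt8* (697 to 1788 CPM) and *Krt18* (644 to 1599 CPM) were present in all tumors, as were the squamous markers *Krt14* (12.3 to 389.7 CPM) and *Krt6a* (46.4 to 291.9 CPM) and the lineage factor *Sox2* (9.56 to 32.9 CPM). *Trp63*, the p53 relative that marks squamous cells, was at 0.370 to 6.94 CPM, and *Krt5* reached 87.4 CPM in replicate 1 of the control shRNA but no more than 5.02 CPM elsewhere.

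Levels of different genes were compared in the authors' TPM, a share of all transcripts, which accounts for transcript length. *Mdm2* was by far the highest of the 10 genes, at 1836 ± 298 TPM (mean ± SD, n = 9 tumors), and ranked between 35 and 72 of all genes in the single tumors. Next came *Bax*, which encodes a pore-forming protein of the mitochondrial membrane, at 456 ± 64.5 TPM, and *Ccng1*, which encodes cyclin G1, at 287 ± 63.3 TPM. *Trp53* itself was at 236 ± 39.1 TPM, so its mRNA ranked between 495 and 1003 of all genes. *Cdkn1a*, which encodes the cyclin-dependent kinase inhibitor p21, was at 167 ± 43.0 TPM and *Phlda3*, which encodes an inhibitor of AKT, at 157 ± 29.0 TPM. *Zmat3* (37.5 ± 8.71 TPM), *Sesn2* (23.4 ± 4.20 TPM), *Bbc3* (16.9 ± 2.13 TPM) and *Eda2r* (1.15 ± 0.993 TPM) followed. Each gene was above the next in all 9 tumors, except that *Ccng1* was above *Trp53* in 7, *Cdkn1a* above *Phlda3* in 4 and *Sesn2* above *Bbc3* in 8. The order within each of these pairs was thus not set by these data, least of all for *Cdkn1a* and *Phlda3*.

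**Figure D1:**
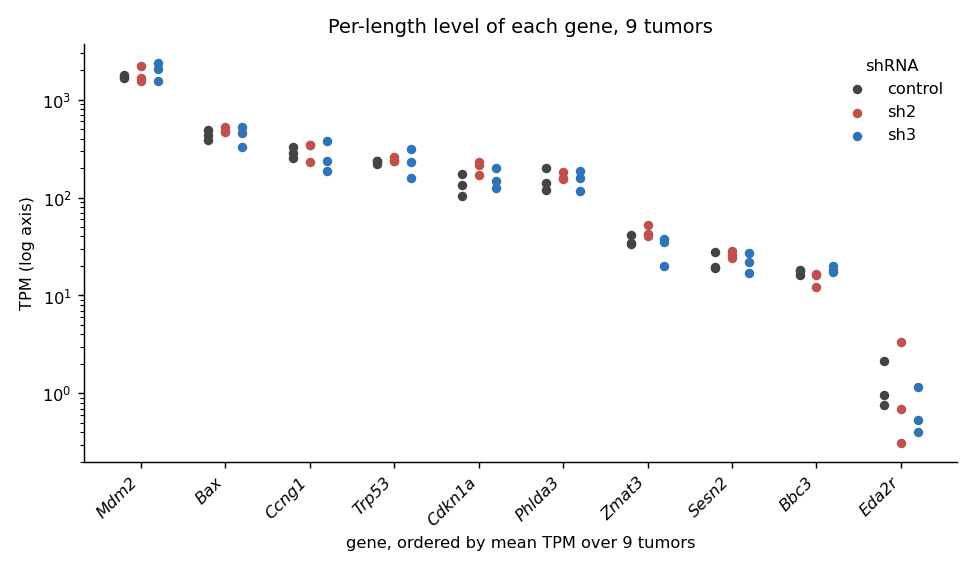
TPM of the 10 genes on a log axis, 1 point for each of the 9 tumors, colored by shRNA, with the genes ordered by their mean TPM. *Mdm2* lies between 1562 and 2364 TPM and *Eda2r* between 0.310 and 3.36 TPM.

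Each tumor was then compared in CPM scaled by edgeR's trimmed mean of M-values (TMM), which is suited to one gene across tumors and not to different genes. The test was edgeR's quasi-likelihood test, and the false discovery rate (FDR) was adjusted over all 14725 genes.

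*Trp53* stood at 188.7, 176.7 and 178.3 CPM under the control shRNA, at 185.5, 223.0 and 189.6 CPM under sh2 and at 246.5, 161.0 and 203.2 CPM under sh3. The sh3 tumors held both the highest and the lowest value, and the groups overlapped. The log2 fold change was 0.14 (SE 0.165, 95% CI −0.23 to 0.51) with sh2 and 0.17 (SE 0.165, 95% CI −0.20 to 0.54) with sh3, with FDRs of 0.999 and 0.868. Without sh3 replicate 1 the value with sh3 was 0.01, without sh3 replicate 2 it was 0.31, and without sh2 replicate 2 the value with sh2 was 0.06. Changes in *Trp53* mRNA beyond these intervals were therefore not seen, and smaller ones were not detectable with 3 tumors per group. How reads that map to several places were counted is not given in the sources used here, nor is the strand setting, so reads shared with a processed pseudogene or with the antisense neighbor *Wrap53* cannot be set apart from those of *Trp53*.

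*Mdm2*, the negative regulator of p53, stood at 2374, 2170 and 2117 CPM under the control shRNA, at 2847, 2334 and 2097 CPM under sh2 and at 2711, 2615 and 3489 CPM under sh3. All sh3 tumors were above all control tumors, whereas the sh2 tumors spanned the control range. With sh3 the mean was 2938 ± 479 CPM against 2221 ± 136 CPM in the control (SD, n = 3 each), a log2 fold change of 0.40 (SE 0.182, 95% CI −0.01 to 0.81, unadjusted p = 0.0531, FDR 0.757). The exact permutation test, two-sided, gave p = 0.1, the smallest value that 3 tumors against 3 allow. Without sh3 replicate 3, the highest tumor, the log2 fold change was 0.24. In TPM, which is not scaled by TMM, the sh3 tumors (1562 to 2364) overlapped the control tumors (1646 to 1787). With sh2 the log2 fold change was 0.13 (SE 0.182, 95% CI −0.28 to 0.54) and was −0.01 without sh2 replicate 1, and the difference between sh3 and sh2 was 0.28 (95% CI −0.13 to 0.69, FDR 0.713).

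Genes beside *Mdm2* on the chromosome also had high levels, a pattern that was noticed after the values had been seen. *Mdm2* lies at chr10:117688875-117710758 (mm10), and 22 other genes of the table start within 1 Mb of its start. Of these, 10 (45.5%) had a mean TPM above 175.5, the 95th percentile of all genes in the table. They included *Cct2*, which encodes a subunit of the TRiC chaperonin (4501 TPM, rank 12), *Rap1b*, which encodes a small GTPase (3019 TPM, rank 21), *Nup107*, which encodes a nuclear pore protein (513 TPM), *Rab3ip* (357 TPM), *Yeats4* (289 TPM), *Mdm1* (260 TPM) and *Slc35e3* (237 TPM). *Lyz2* (2074 TPM), which lies in the same stretch, is a gene of macrophages and neutrophils, which are host cells. Between these genes lay others with almost no reads, such as *Lrrc10* (0.254 TPM) and *9530003J23Rik* (0.0381 TPM).

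**Figure D2:**
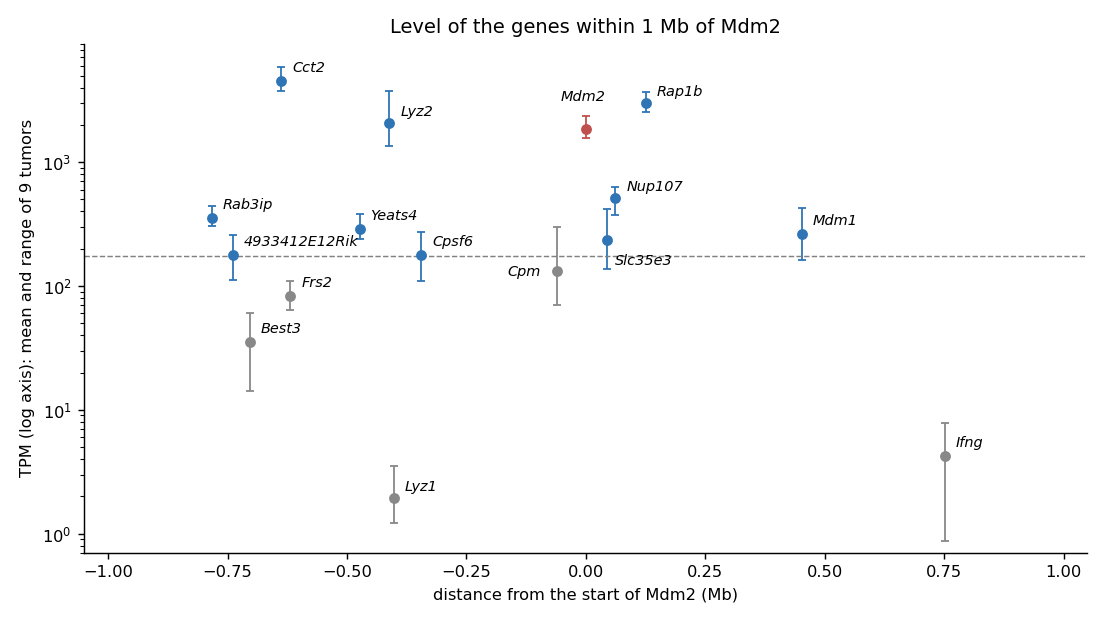
Mean TPM (log axis) with the range over 9 tumors for *Mdm2* and for its neighbors against the distance of each gene's start from that of *Mdm2* in Mb. Blue genes have a mean above 175.5 TPM (dashed line), grey genes do not, and 7 genes under 1 TPM are not drawn; *Cct2*, *Lyz2*, *Mdm2* and *Rap1b* stand highest, all within less than 1 Mb of its start.

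Around the other members, the share of such genes was 11.3% of 97 neighbors for *Trp53*, 10.0% of 30 for *Phlda3*, 9.17% of 109 for *Bax*, 6.25% of 32 for *Bbc3*, 4.35% of 46 for *Sesn2* and 2.63% of 38 for *Cdkn1a*. None of the 3 neighbors of *Ccng1*, the 11 of *Zmat3* or the 2 of *Eda2r* was above that level. Among 15423 windows of this size with at least 10 genes, 21 (0.136%) had a share as high as that around *Mdm2*, and all 21 were centered within 1 Mb of *Mdm2*. Of the 10 high neighbors, 6 were above 175.5 TPM in every tumor, and the group mean was above it for all 10 in the control tumors, for 9 with sh2 and for 9 with sh3. Of its 17 neighbors that could be tested, 14 had a log2 fold change above 0 with sh3, with a median of 0.23, and 11 with sh2, with a median of 0.08, where 54.9% and 51.8% of all genes were above 0. With sh3 the highest log2 fold changes were 0.63 for *Lyz2*, the gene of host cells, 0.59 for *Ifng*, 0.56 for *Yeats4* and 0.55 for *Lyz1*. Of the high neighbors, *Cct2* was at 0.37 and *Rab3ip* at 0.35, and the lowest were *Mdm1* at 0.06 and *Cpsf6* at 0.05. None of the neighbors passed the FDR. They were measured in the same tumors, so they do not count as separate observations. No DNA of these tumors was analysed here.

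*Cdkn1a*, the best-known p53 target of cell cycle arrest, stood at 150.7, 116.7 and 84.5 CPM under the control shRNA, at 143.3, 197.4 and 202.8 CPM under sh2 and at 174.5, 138.4 and 141.5 CPM under sh3. The lowest values were those of control shRNA replicates 3 and 2, but control shRNA replicate 1 lay among the shRNA tumors, so the groups overlapped. The mean was 181 ± 32.9 CPM with sh2 and 152 ± 19.96 CPM with sh3 against 117 ± 33.1 CPM in the control (SD, n = 3 each). The log2 fold change was 0.63 with sh2 (SE 0.226, 95% CI 0.12 to 1.14, unadjusted p = 0.0216, FDR 0.999) and 0.37 with sh3 (SE 0.226, 95% CI −0.14 to 0.88, unadjusted p = 0.137, FDR 0.783). Averaged over both shRNAs, its log2 fold change was 0.50 (SE 0.199, 95% CI 0.05 to 0.95, unadjusted p = 0.0338, FDR 0.982). The exact permutation test, two-sided, gave p = 0.2, 0.3 and 0.0595 for the 3 comparisons, where 6 tumors against 3 allow p = 0.0119 at the least. *Cdkn1a* had the lowest unadjusted p of the 10 genes with sh2 and for both shRNAs, but it did not pass the FDR. Leaving out 1 tumor at a time moved its log2 fold change with sh2 between 0.44, without control shRNA replicate 3, and 0.85, without control shRNA replicate 1, and the unadjusted p between 0.00548 and 0.0702. For both shRNAs together it was 0.30 without control shRNA replicate 3 and 0.71 without control shRNA replicate 1, and with sh3 alone 0.17 and 0.58 without the same tumors.

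*Ccng1*, whose cyclin G1 acts back on MDM2 through a phosphatase, stood at 429.7, 377.7 and 458.7 CPM under the control shRNA, at 499.1, 365.4 and 515.1 CPM under sh2 and at 278.8, 443.6 and 621.8 CPM under sh3. The sh3 tumors held the lowest and the highest of all 9 values. Its log2 fold change was 0.12 with sh2 (SE 0.270, 95% CI −0.49 to 0.74) and 0.09 with sh3 (SE 0.270, 95% CI −0.52 to 0.70), far within the spread between tumors, and the latter was −0.25 without sh3 replicate 3 and 0.34 without sh3 replicate 1.

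**Figure D3:**
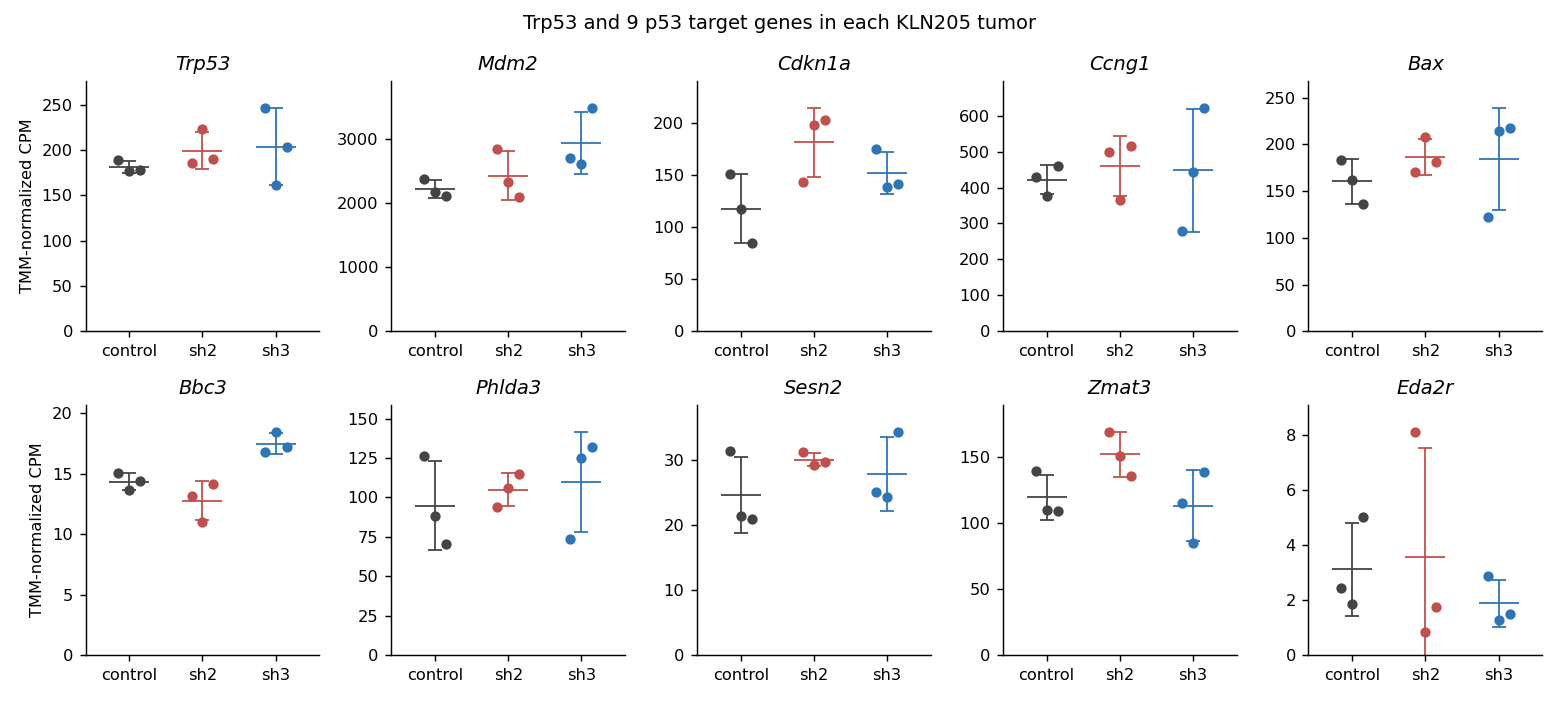
TMM-normalized CPM of each gene in each tumor (points), from left to right replicates 1 to 3 of the control shRNA, sh2 and sh3, with the group mean (horizontal line) and SD (bars, cut at 0 for *Eda2r*). In *Mdm2* and *Bbc3* all sh3 tumors lie above all control tumors, and in every other gene both shRNA groups overlap the control group.

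Among the genes of apoptosis, *Bax* stood at 183.8, 162.0 and 135.9 CPM under the control shRNA, at 170.4, 207.6 and 180.9 CPM under sh2 and at 121.8, 214.2 and 218.1 CPM under sh3. The lowest value was again that of sh3 replicate 1. *Bax* had a log2 fold change of 0.21 with sh2 (SE 0.226, 95% CI −0.30 to 0.73) and 0.20 with sh3 (SE 0.226, 95% CI −0.31 to 0.71). The value with sh3 was 0.43 without sh3 replicate 1 (unadjusted p = 0.0212 in edgeR), 0.04 without sh3 replicate 3, 0.08 without sh3 replicate 2 and 0.08 without control shRNA replicate 3.

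*Bbc3* encodes PUMA, a BH3-only protein that activates BAX. It stood at 15.04, 13.62 and 14.41 CPM under the control shRNA, at 13.19, 11.01 and 14.14 CPM under sh2 and at 16.78, 18.49 and 17.20 CPM under sh3. Every sh3 tumor was above every other tumor, and the sh2 tumors reached below the control range. *Bbc3* had a log2 fold change of −0.17 with sh2 (SE 0.158, 95% CI −0.52 to 0.19, FDR 0.999) and 0.29 with sh3 (SE 0.158, 95% CI −0.07 to 0.64, unadjusted p = 0.105, FDR 0.760). Tested directly, sh3 was above sh2 by 0.45 on the log2 scale (SE 0.159, 95% CI 0.09 to 0.81, unadjusted p = 0.0188, FDR 0.673), and the exact permutation test, two-sided, gave its smallest possible p of 0.1. In TPM the sh3 tumors (17.3 to 19.9) stayed above the sh2 tumors (12.3 to 16.5) but overlapped the control tumors (16.20 to 18.02). For the mean of both hairpins, which target the same gene, *Bbc3* had a log2 fold change of 0.06 (SE 0.137).

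*Phlda3* stood at 126.0, 88.0 and 70.2 CPM under the control shRNA, at 93.9, 105.6 and 115.1 CPM under sh2 and at 73.6, 124.7 and 131.8 CPM under sh3. The control tumors covered nearly the whole range of the gene. Its log2 fold change was 0.15 with sh2 (SE 0.262, 95% CI −0.45 to 0.74) and 0.22 with sh3 (SE 0.262, 95% CI −0.38 to 0.81), and the value with sh2 was −0.03 without control shRNA replicate 3. The value with sh3 was 0.03 without control shRNA replicate 3, 0.04 without sh3 replicate 3, 0.44 without sh3 replicate 1 and 0.46 without control shRNA replicate 1.

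*Sesn2* encodes a stress-induced protein that restrains the growth kinase mTORC1. It stood at 31.35, 21.44 and 20.92 CPM under the control shRNA, at 31.26, 29.23 and 29.74 CPM under sh2 and at 25.01, 24.24 and 34.39 CPM under sh3. Only control shRNA replicate 1 among the control tumors reached the level of the sh2 tumors. *Sesn2* had a log2 fold change of 0.29 with sh2 (SE 0.201, 95% CI −0.16 to 0.74) and 0.18 with sh3 (SE 0.201, 95% CI −0.27 to 0.64). Without control shRNA replicate 1 the value with sh2 was 0.51, and without sh3 replicate 3 that with sh3 was −0.02.

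*Zmat3*, which encodes an RNA-binding zinc finger protein, stood at 139.6, 110.1 and 109.3 CPM under the control shRNA, at 169.6, 151.3 and 135.6 CPM under sh2 and at 115.5, 85.0 and 139.0 CPM under sh3. The sh2 tumors were high and the sh3 tumors spread around the control tumors. For *Zmat3* the log2 fold change was 0.35 with sh2 (SE 0.194, 95% CI −0.09 to 0.79, unadjusted p = 0.107) and −0.08 with sh3 (SE 0.194, 95% CI −0.52 to 0.36). The difference of sh3 from sh2 was −0.43 (SE 0.194, 95% CI −0.87 to 0.01, unadjusted p = 0.0550, FDR 0.673), opposite in sign to that of *Bbc3*.

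*Eda2r*, which encodes a receptor of the TNF family, was scarce, with 57, 45 and 123 reads in the control tumors, 193, 17 and 42 with sh2 and 62, 25 and 35 with sh3. These correspond to 2.43, 1.86 and 5.04 CPM, to 8.13, 0.821 and 1.75 CPM and to 2.87, 1.27 and 1.497 CPM. The highest and the lowest tumor, 9.90-fold apart, both carried sh2. Its log2 fold change was 0.20 with sh2 (SE 0.779, 95% CI −1.56 to 1.96) and −0.73 with sh3 (SE 0.791, 95% CI −2.51 to 1.06), and the value with sh2 was −1.27 without sh2 replicate 1. No direction can be read for this gene.

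**Figure D4:**
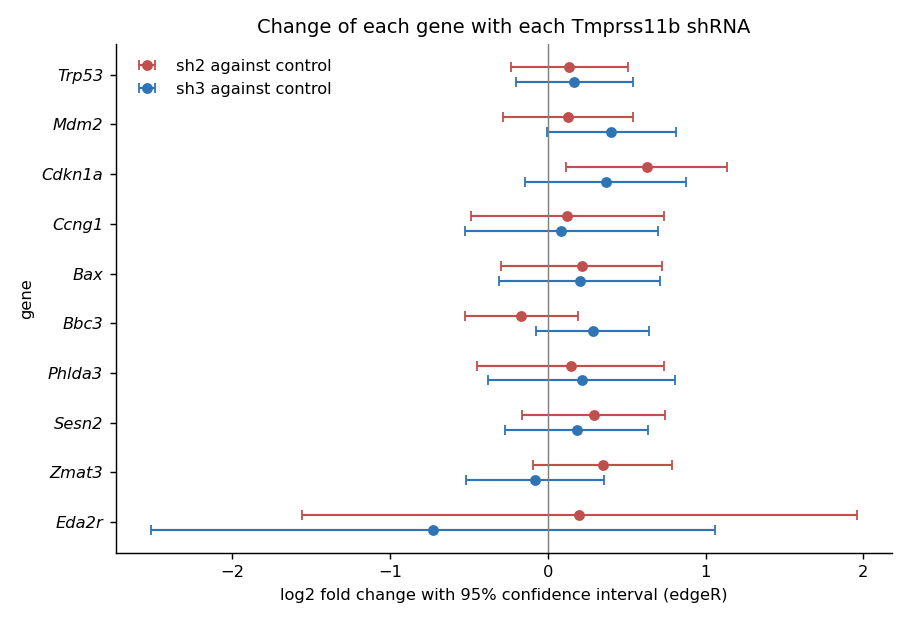
Log2 fold change of each gene with sh2 (red) and with sh3 (blue) against the control shRNA, with 95% confidence intervals from edgeR. Only the interval of *Cdkn1a* with sh2 (0.12 to 1.14) excludes 0, and those of *Eda2r* are the widest.

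No member had an FDR under 0.05 in any comparison, as was true of all genes tested (0.0% in each comparison). At an unadjusted p under 0.05 the test called 1 of the 10 with sh2 (*Cdkn1a*), against 3.52% of all genes, none with sh3, against 6.63%, 1 for the mean of both (*Cdkn1a*), against 4.09%, and 1 between sh3 and sh2 (*Bbc3*), against 7.18%. With DESeq2 in place of edgeR no member had an FDR under 0.05 either (lowest 0.233, in sh3 against sh2), while 2, 41, 9 and 46 of all genes did in the same 4 comparisons (0.0136%, 0.278%, 0.0611% and 0.312%). DESeq2 gave an unadjusted p under 0.05 for 1, 1, 1 and 2 members, against 4.77%, 8.09%, 5.2% and 9.28% of all genes. All tumors of a group were above all control tumors for 2 of the 10 members with sh3 (*Mdm2* and *Bbc3*), against 6.78% of all genes, and for none with sh2, against 5.56%, or with both, against 1.21%. All sh3 tumors were above all sh2 tumors for 1 member (*Bbc3*), against 5.51% of all genes. The log2 fold change was above 0 for 9 of the 10 with sh2, for 8 with sh3 and for 9 with the mean of both, where 51.8%, 54.9% and 55.0% of all genes were above 0. The median over the 10 was 0.17, 0.19 and 0.17, against 0.01, 0.03 and 0.02 over all genes. Leaving out 1 tumor moved the median over the 10 to between 0.12 and 0.25 with sh2 and between 0.11 (without sh3 replicate 3) and 0.28 (without control shRNA replicate 1) for both. With sh3 it was 0.04 without sh3 replicate 3, close to the value over all genes, and 0.30 without control shRNA replicate 1. Both shRNA groups share the same control tumors, so the values with sh2 and sh3 do not count as separate observations. Between sh3 and sh2, which does not use the control tumors, 4 of the 10 were above 0, against 54.9% of all genes, with a median of −0.02.

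The 10 genes varied about as much over the 9 tumors as other genes did, with a median coefficient of variation of 19.5% against 20.9% over all genes tested, from 13.4% for *Trp53* to 81.7% for *Eda2r*. They did not move as a block. Over the 9 tumors, which include the group differences, 30 of the 45 pairs of members had a Pearson r of log2 CPM above 0, with a median of 0.21. The closest pairs were *Bax* with *Phlda3* (r = 0.91, Spearman rho = 0.90) and *Sesn2* with *Zmat3* (r = 0.74, rho = 0.75). *Trp53* and *Cdkn1a* had r = 0.55 (rho = 0.73). The genes most like *Trp53* over 9 tumors, out of 13595 genes whose mean reached 1 CPM, were *Myc* (r = 0.98, rho = 0.78), *Wdr33* (r = 0.98, rho = 0.98) and *Sf3a1* (r = 0.98, rho = 0.90). Those most like *Mdm2* were *Slc25a15* (r = 0.93), *Mapkap1* (r = 0.89) and *Mcpt1* (r = 0.88), and those most like *Cdkn1a* were *Rxrb*, *Mpzl1* and *Mul1* (r = 0.94 each). These are the top values of a long list and are given as a description.

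Upstream of p53, 15 of 16 regulators had enough reads to be tested, and none passed the FDR. Their log2 fold changes were above 0 in 8 with sh2 and 7 with sh3, with medians of 0.05 and −0.01. Of all genes, 51.8% were above 0 with sh2 and 54.9% with sh3, with medians of 0.01 and 0.03. The same shares apply to the lists below. *Cdkn2a*, whose ARF product blocks MDM2, ranged from 119 to 309 CPM over the tumors (245 to 510 TPM), with a log2 fold change of 0.31 with sh2 (SE 0.337) and 0.35 with sh3 (SE 0.337). Its count does not separate ARF from p16INK4a, which the same gene encodes. *Mdm4*, the partner of MDM2, ranged from 41.3 to 92.1 CPM (log2 fold change 0.17 and −0.03). *Ppm1d*, a phosphatase and p53 target that shuts p53 signaling down, stood at 26.4, 19.2 and 20.2 CPM under the control shRNA and at 23.1, 37.5 and 30.8 CPM with sh2 (log2 fold change 0.47, unadjusted p = 0.0414, FDR 0.999), and had a log2 fold change of 0.09 with sh3. *Chek2* (−0.24 and −0.14) and *Cop1*, listed as *Rfwd2* (0.13 and 0.25), were the other regulators with the lowest p for both shRNAs. Of the relatives of p53, *Trp63* had a log2 fold change of −0.99 (SE 0.884) and −0.78 (SE 0.880), and *Trp73*, with 0 to 10 reads per tumor, was not tested.

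Of 12 further targets of arrest and DNA repair, the log2 fold change was above 0 for 10 with sh2 and 9 with sh3, with medians of 0.14 and 0.05. *Gdf15*, a secreted stress cytokine, stood at 24.4, 15.98 and 18.9 CPM under the control shRNA, at 23.5, 63.1 and 24.7 CPM under sh2 and at 25.5, 31.2 and 31.2 CPM under sh3. All sh3 tumors were above the control tumors, as were those of 6.78% of all genes. The value of sh2 replicate 2, one of the tumors that stood apart, was far above the rest. The log2 fold change of *Gdf15* was 0.91 with sh2 (SE 0.366, unadjusted p = 0.0346), 0.57 with sh3 (SE 0.365, unadjusted p = 0.152) and 0.74 for both (SE 0.325, unadjusted p = 0.0486, FDR 0.982). *Polk*, a DNA polymerase that copies past damage, had a log2 fold change of 0.30 and 0.18, and *Xpc*, a damage sensor of excision repair, of 0.22 and 0.11.

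Of 11 further targets of cell death, 8 were above 0 with sh2 and 9 with sh3, with medians of 0.10 and 0.16. *Trp53inp1*, a target whose protein promotes p53-dependent cell death and autophagy, stood at 124.9, 129.4 and 108.4 CPM under the control shRNA, at 168.1, 153.4 and 155.7 CPM under sh2 and at 179.9, 135.4 and 210.8 CPM under sh3. All 6 shRNA tumors were above all 3 control tumors, as were those of 1.21% of all genes. The log2 fold change was 0.40 with sh2 (SE 0.167, unadjusted p = 0.0418), 0.54 with sh3 (SE 0.168, unadjusted p = 0.0106) and 0.47 for both (SE 0.148, unadjusted p = 0.0114), and it did not pass the FDR over all genes (0.999, 0.753 and 0.982). *Pmaip1*, which encodes the BH3-only protein NOXA, had a log2 fold change of 0.43 and 0.39 (SE 0.250 each), and *Apaf1*, the scaffold of the apoptosome, of 0.26 and 0.11.

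The 7 targets of metabolism had medians of −0.10 and −0.11, with 2 and 3 above 0. They included *Tigar*, listed as *9630033F20Rik* (0.15 and 0.33), *Gpx1* (0.07 and 0.36) and *Ak1* (−0.43 and −0.58). Of the BCL2 family besides *Bax* and *Bbc3*, 11 of 12 genes were in the table and tested, with 7 above 0 for each shRNA and medians of 0.12 and 0.03. *Bcl2l11*, which encodes BIM, was higher in all sh2 tumors (88.2 to 99.8 CPM) than in all control tumors (67.8 to 85.8 CPM), with a log2 fold change of 0.31 (SE 0.123, unadjusted p = 0.0343, FDR 0.999) and of 0.03 with sh3. Such a separation with sh2 held for 5.56% of all genes. The survival gene *Bcl2l1* had a log2 fold change of 0.26 and 0.38 (SE 0.172 each), and *Mcl1* of 0.12 and 0.13 (SE 0.124 each).

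The cell cycle list joined cyclins and kinases that p21 acts on with cell cycle genes repressed through it. Its medians had opposite signs with the 2 hairpins. Of 16 genes, 4 were above 0 with sh2 (median −0.08) and 13 with sh3 (median 0.09), and 14 were above 0 in sh3 against sh2 (median 0.16 against 0.03 over all genes). Of all genes, 51.8%, 54.9% and 54.9% were above 0 in the same order. Many of the 16 genes are regulated together over the cell cycle, so the 16 do not count as separate observations. *Cdk4* had a log2 fold change of 0.14 with sh2 and 0.31 with sh3 (SE 0.132 each, unadjusted p = 0.0406 with sh3). *Cdk1*, the kinase of mitosis, had −0.05 and 0.30 (SE 0.150 each) and was higher in all sh3 tumors (103.7 to 125.7 CPM) than in all sh2 tumors (84.5 to 96.9 CPM), a difference of 0.35 (unadjusted p = 0.0430, FDR 0.673). Such a separation of sh3 from sh2 held for 5.51% of all genes. *E2f1* had 0.11 and 0.22 (SE 0.165 each).

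**Figure D5:**
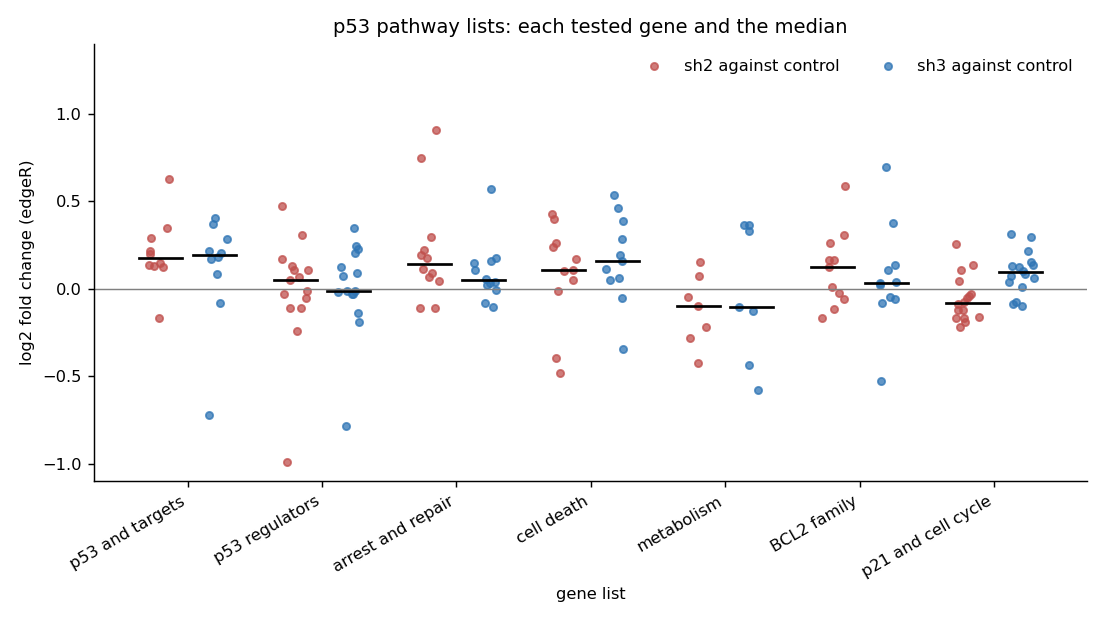
Log2 fold change of each tested gene with sh2 (red) and sh3 (blue) against the control shRNA, for the 10 members and for 6 lists of the p53 pathway, with the median of each list as a black line. The medians lie between −0.11 and 0.19, and the widest separation of the hairpins is that of the cell cycle genes (−0.08 and 0.09).

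RNA of other cell types differed between the tumors in the same samples. The summed CPM of 6 fibroblast genes was 2992 to 5312 in the control tumors, 2335 to 3915 with sh2 and 1240 to 2200 with sh3, below every control tumor, and with sh2 and sh3 the log2 fold change was −0.38 and −1.25 for *Col1a1*, −0.30 and −1.27 for *Col1a2* and −0.97 and −1.72 for *Lum*. None of the marker genes named here passed the FDR. The sum of 8 skeletal muscle genes was 22.6 to 3541, 5.80 to 128 and 98.2 to 1130 CPM in the same order, and that of 7 macrophage genes was 2169 to 2402, 1278 to 2145 and 866 to 4170 CPM. The muscle genes *Myh4* (−5.81 and −1.73), *Pygm* (−4.04 and −1.84) and *Atp2a1* (−5.10 and −1.90) had wide errors (SE 1.33 to 2.06), and the macrophage genes were at −0.54 and −0.13 for *Adgre1* (listed as *Emr1*), −0.21 and −0.13 for *Csf1r* and −0.29 and 0.08 for *Cd68*. The lowest macrophage sum was that of sh3 replicate 1, the tumor with the lowest *Bax* and *Ccng1* and the highest *Trp53*. For the other members, neither the lowest nor the highest value was in that tumor. The sum of 6 T cell genes was 70.7 to 85.3, 22.5 to 92.0 and 50.3 to 151 CPM, that of 5 neutrophil genes 86.8 to 174, 99.6 to 182 and 55.1 to 156 CPM, and that of 5 endothelial genes 203 to 242, 185 to 216 and 138 to 215 CPM. With sh2 and sh3 the log2 fold change was −0.04 and 0.56 for *Cd4*, −0.96 and 0.09 for *Cd8a* and −0.39 and 0.87 for *Cd2*. It was −0.04 and −0.36 for *Csf3r*, 0.84 and −0.62 for *Cxcr2* and 1.22 and 0.58 for *Retnlg* among the neutrophil genes, and −0.32 and −0.26 for *Pecam1*, −0.23 and −0.41 for *Cdh5* and −0.54 and −0.94 for *Tek* among the endothelial genes. The sum of 4 adipocyte genes was 5.66 to 10.8, 0.126 to 11.1 and 0.0 to 1.202 CPM, and each of the 4 was at 0 reads in some tumor, so no fold is given for *Adipoq*, *Plin1* and *Cidec*. The sum of 9 squamous and epithelial genes was 2502 to 3891, 2827 to 5317 and 2959 to 3294 CPM, so the sh3 tumors lay within the control range. The log2 fold change was −1.27 and −0.99 for *Krt14* and −0.70 and −0.72 for *Krt6a*. It was −3.52 (SE 1.70) and −7.51 (SE 2.21) for *Krt5*, whose reads came mostly from control shRNA replicate 1. Control shRNA replicates 2 and 3 had 0.455 and 0.573 CPM of *Krt5*, below the sh2 tumors (0.843 to 5.02 CPM), and its lowest count in a tumor was 2. Of these 9 squamous and epithelial genes, 4 were above 0 with sh2, *Epcam* (0.38), *Cdh1* (0.64), *Krt8* (0.40) and *Krt18* (0.45), and 5 were below. With sh3, 3 were above 0 and 6 below. The 10 genes are not specific to carcinoma cells, and the part of this makeup in the values of *Mdm2*, *Cdkn1a* and *Bbc3* was not tested.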

How the data were processed

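RNA of 9 tumors, 3 per group, was analysed. Per the labels, poly-A RNA was made into stranded TruSeq libraries, sequenced on an Illumina NextSeq, checked with FastQC, aligned to mm10 with STAR 2.5.3a and counted with featureCounts by the authors. The deposited values are raw counts per gene for each tumor, a normalized signal (CPM), which equals the count over the tumor's total times its TMM factor, and TPM. The authors also deposited columns of their own comparisons (log2 fold changes, mean log2 CPM, likelihood ratios, p-values and FDRs), which were not used. Groups and replicate numbers came from the labels.

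Counts were fitted with edgeR 4.0.16 (robust quasi-likelihood test, TMM, filter by group) over all 9 tumors with the group as the only term. The 4 comparisons were sh2, sh3 and their mean against the control, and sh3 against sh2. Benjamini-Hochberg adjustment ran over all 14725 genes. Log2 CPM used a prior count of 2. The fit was tested on simulated data, drawn for each gene on its own and without tumors that stand apart. Total counts were 20653219 to 24047784, so that 3 counts equal 0.123 to 0.152 CPM. Nothing in the labels says more of the replicates than that they are biological.

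All members are named. Of each other list, the 3 genes with the lowest unadjusted p for the mean of both shRNAs are named, with *Trp63*, *Trp73*, *Mdm4* and *Cdkn2a* always. The neighbors of *Mdm2*, and *Epcam*, *Cdh1*, *Krt8*, *Krt18* and *Sox2*, were picked with their values in view. The members and lists were chosen with earlier results of these data known. *Cop1*, *Tigar* and *Adgre1* were matched by synonym. Promoters are those of RefSeq on GRCm38.p6. Alternatives were other normalizations, tests and filters, DESeq2, a replicate block, and each tumor left out.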

Additional observations from a re-analysis of the deposited data

Results flagged for a closer look

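*Bbc3*, which encodes PUMA, drew attention because every sh2 tumor was below and every sh3 tumor above the mean of the control tumors. The log2 difference of sh3 from sh2 was 0.45 (SE 0.159, unadjusted p = 0.0188 in edgeR's test of the difference), with the sh3 tumors higher in 3 of 3, and it did not pass the FDR over all genes (0.673). At an unadjusted p under 0.05 the same comparison called 7.18% of all genes. The fibroblast sum was also lower in each sh3 tumor (1240 to 2200 CPM) than in each sh2 tumor (2335 to 3915 CPM), and its part in the difference of *Bbc3* was not tested.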

How the results depend on the processing

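Under the 17 alternatives, no member had an FDR under 0.05 in any comparison. Of 670 alternative values, 644 kept their direction and 26 reversed, all of them, like the rest, in values that did not pass the test. These counts do not measure robustness, since many alternatives could hardly move a value. Leaving out an sh3 tumor barely touches sh2 against control, as for *Trp53* (0.1375, and 0.1381 without sh3 replicate 1). With edgeR's likelihood ratio test that value was again 0.1375. Leaving out 1 tumor at a time gave, with sh2, log2 fold changes of −0.0064 to 0.23 for *Mdm2*, −0.0276 to 0.41 for *Phlda3* and −1.27 to 0.75 for *Eda2r*. With sh3 it gave −0.27 to 0.0899 for *Zmat3*, −0.25 to 0.34 for *Ccng1* and −0.0173 to 0.39 for *Sesn2*. For the mean of both it gave −0.0001 to 0.43 for *Phlda3*, −1.0003 to 0.27 for *Eda2r* and −0.06 to 0.23 for *Ccng1*. For sh3 against sh2 it gave −0.13 to 0.17 for *Trp53*, −0.38 to 0.21 for *Ccng1*, −0.11 to 0.29 for *Phlda3*, −1.42 to 0.54 for *Eda2r* and −0.18 to 0.22 for *Bax*, and −0.21 (without sh3 replicate 3) to 0.0886 for the median of the 10. Without both tumors that stood apart, an alternative chosen after seeing the data, the value was 0.0351 for *Zmat3* with sh3 and 0.0546 for *Bax* in sh3 against sh2, and the median with sh2 was 0.34. With a replicate block, *Eda2r* with sh2 was at −0.30, and the medians of the 10 were 0.14 with sh2, 0.18 with sh3, 0.16 for both and −0.05 for sh3 against sh2. No pairing by replicate number was seen: once group means were removed, same-numbered tumors correlated at −0.10 on average, and 0 of 9 correlated best with their own number. With 3 tumors per group, a weak pairing could be missed. The cause of these shifts was not tested.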
